A study of Mus musculus with 15 samples.

Results

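Neurotensin is a secreted peptide that acts as a transmitter and modulator, and this account follows the gene for its precursor, Nts, with the 3 genes for its receptors, Ntsr1, Ntsr2 and Sort1, over 5 spinal motor pools. These were 4 genes of the 36814 in the deposited count table, found by their symbols. Nts was chosen from its measured levels in these same libraries, so its pattern over the pools is described without a test. The receptors were taken by name because they bind neurotensin, and they were tested. All 4 genes passed the filter on low counts, which left 14340 genes to test.

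RNA-seq libraries, 15 in number and 3 to a pool, were made from motor neurons of wild-type mice aged 6 days. A motor pool is the set of spinal motor neurons that supply a muscle, and 5 were compared: TA (tibialis anterior), GS (gastrocnemius), EDL (the long toe extensor, extensor digitorum longus), PL (peroneus longus) and IF (the small muscles within the foot). All groups received the same tracer, cholera toxin B subunit with a red fluorophore, in the muscle at day 4, and per the labels each library pooled 30 to 40 laser-captured cells from 2 to 5 animals, at least 250000 µm2 of tissue cut at 12 µm. Which animals entered a library is not given in the sources used here, so the tests measure the spread between pooled libraries. Neighbouring cells in a captured area can add RNA, and in such bulk samples fewer cells of a type and less RNA per cell cannot be told apart.

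The Nts precursor is cut by prohormone convertases into neurotensin and the related peptide neuromedin N, which are stored in vesicles and released. In the spinal cord neurotensin is best known from interneurons of the dorsal horn. Ntsr1 and Ntsr2 are G protein-coupled receptors: the first has high affinity and raises calcium through Gq and phospholipase C, and the second has lower affinity and is also known from astrocytes. Sort1, sortilin, is a different kind of protein, a sorting receptor of the Vps10p-domain family that binds neurotensin, carries cargo between Golgi, endosome and cell surface, and pairs with the p75 neurotrophin receptor to bind proneurotrophins.

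On the build mm9 used by the files, Nts (ENSMUSG00000019890) lies on the minus strand of chromosome 10 from 101944394 to 101953053. Ntsr1 (ENSMUSG00000027568) lies on the plus strand of chromosome 2 from 180234681 to 180279686. Ntsr2 (ENSMUSG00000020591) lies on the plus strand of chromosome 12 from 16660276 to 16667043. Sort1 (ENSMUSG00000068747) lies on the plus strand of chromosome 3 from 108087009 to 108164430. The library kit does not mark strand, and of the 4 genes only Sort1 overlaps another gene of the table, the model Gm12523 on the opposite strand, which had at most 7 reads in any library.

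The region just upstream of Nts is shown because Nts was the gene whose level set the pools apart. The 250 bases before its start, from the RefSeq promoter table on GRCm38.p6, are chr10:102490419-102490668 on the minus strand, a build that differs from that of the counts. Written 5′ to 3′, with capitals for matches to 3 motifs, they read:
Nts: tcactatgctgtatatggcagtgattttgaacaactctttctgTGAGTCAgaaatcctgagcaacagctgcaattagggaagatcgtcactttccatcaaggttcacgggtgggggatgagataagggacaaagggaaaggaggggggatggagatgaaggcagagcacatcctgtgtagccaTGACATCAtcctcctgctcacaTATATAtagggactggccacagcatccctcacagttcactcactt
Counted from the start of the transcript, the match to TGANTCA (the AP-1 motif) lies at -207 to -201. The match to TGACNTCA (a form of the cyclic AMP response element) lies at -67 to -60. The match to TATATA lies at -45 to -40. Searched on both strands in the 250 upstream bases of 32851 RefSeq windows of 27025 genes, TGANTCA was present in 6.75%, TGACNTCA in 7.49% and TATATA in 5.25%. The corresponding windows of Ntsr1 and Ntsr2 hold none of these letters. The matches describe sequence, and nothing measured here bears on binding to them.

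Total counts per library ran from 4417114 to 8488368. PL 2 and PL 3, the libraries of PL numbered 2 and 3, stood apart with 11019 and 10548 genes detected, against 13092 to 17321 in the 13 others, and results that rest on them are given with and without them. All 8 motor neuron markers were detected in every library, with the choline acetyltransferase gene Chat at 66.2 to 495 CPM (reads of a gene per 1000000 reads counted) and the choline transporter gene Slc5a7 at 706 to 1906 CPM. Markers of other cell types were detected as well, and those of interneurons, astrocytes and oligodendrocytes are given with Nts, Ntsr2 and Sorcs1. CPM here are scaled between libraries by the TMM method.

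Nts ran over more than 2 orders of magnitude, highest in the extensor digitorum longus pool and lowest in the intrinsic foot pool. In EDL the 3 libraries were at 599, 486 and 458 CPM, and in PL at 214, 232 and 251 CPM. In GS they were at 28.1, 53.3 and 28.6 CPM, in TA at 23.1, 30.2 and 45.2 CPM, and in IF at 2.24, 5.12 and 4.48 CPM. Every EDL library was thus above every PL library, every PL library was above the GS and TA libraries, and every IF library was below all others, while GS and TA overlapped. Of the 14340 tested genes, 0.00697%, which is Nts alone, had this arrangement of the 5 pools without overlap. The 3 EDL libraries lay above the 12 others for 0.418% of the tested genes, and the 3 IF libraries lay below the 12 others for 1.22%. Nts was picked for its levels and the arrangements were read from Nts itself, so Nts meets them by construction. These shares describe only how common each arrangement was.

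The ratio of mean Nts CPM was 2.21 ± 0.364 for EDL over PL (propagated SD, n = 3 and 3), 6.35 ± 2.55 for PL over GS and 8.31 ± 4.28 for TA over IF. The ratio of GS over TA was 1.12 ± 0.584, within the spread of both pools, and leaving out a library moved it between 0.863 and 1.38. From the highest to the lowest pool the ratio was 130 ± 53.4. With other scalings the order of the pools was the same, but the ratio of EDL over PL was 2.95 in unscaled CPM and 3.36 in the authors' RPKM. The IF level rested on few reads: 94 Nts reads over its 3 libraries, against 13115 in EDL, 3844 in PL, 680 in GS and 560 in TA. The precursor was detected in every IF library all the same.

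**Figure D1:**
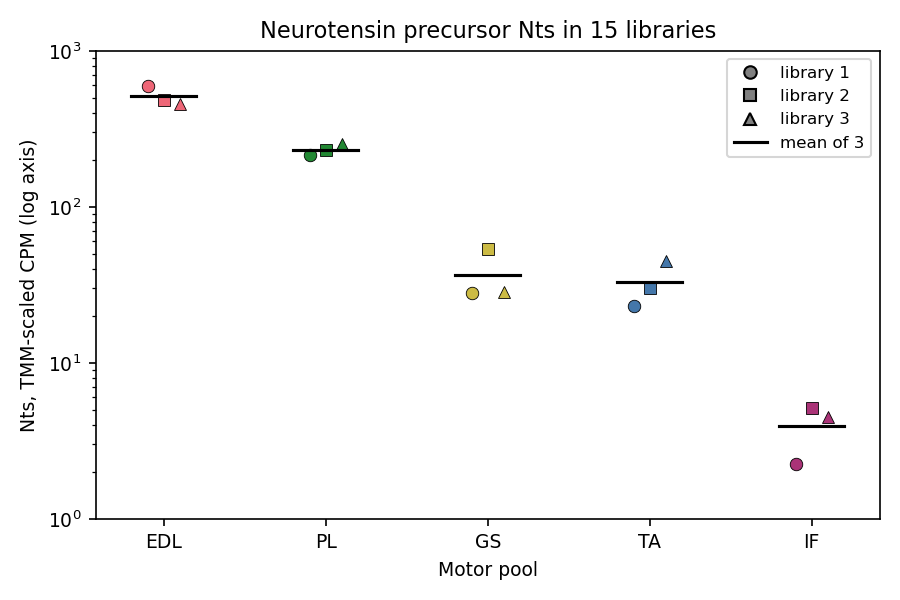
Nts level of each library in TMM-scaled CPM (log axis) by motor pool, with the symbol giving the library number and the bar the mean of 3. The libraries form 4 levels, with EDL at 458 to 599, PL at 214 to 251, GS and TA together at 23.1 to 53.3 and IF at 2.24 to 5.12 CPM.

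Relative to their mean, the libraries of EDL and of PL differed less for Nts than those of the 3 pools with lower levels. The SD of log2(CPM + 1) within pools, pooled over the 5, was 0.40. Of the 2119 tested genes within 2-fold of its mean level, 16.2% had a smaller one, and their median was 0.59. Nts was picked for its levels in these libraries, which can favour a small spread, so this place among genes is description only. The coefficient of variation was 7.83% in PL and 14.5% in EDL, against 34.4% to 39.4% in the 3 pools with lower levels. PL 2 and PL 3, which missed many genes, were at 232 and 251 CPM for Nts, close to the 214 CPM of PL 1. This closeness depended on the scaling. In the authors' RPKM they were at 66.3 and 67.1, below the 93.5 of PL 1. The RPKM means were 75.7 ± 15.5 in PL and 254 ± 17.6 in EDL (SD, n = 3), so there the relative spread was larger in PL.

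By its rank among all genes in the authors' RPKM (read counts scaled to gene length and library total), Nts stood 48th to 66th in the EDL libraries and 163rd to 332nd in the PL libraries. It stood between ranks 1279 and 2412 in GS, 1509 and 3127 in TA, and 7620 and 10328 in IF. In EDL the precursor was thus among the most abundant transcripts per length, and in IF it was among the middle and lower ranks of those detected.

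Markers of other cells also differed between pools. The summed level of 9 markers of spinal interneurons was 34.7 to 69.4 CPM in IF, below the 120 to 374 CPM of the other pools, namely 150 to 229 for EDL, 188 to 374 for PL, 120 to 236 for GS and 153 to 192 for TA. GS and TA, far below EDL in Nts, overlapped EDL in this sum. Most of the sum came from Slc17a6 (the vesicular glutamate transporter of excitatory neurons), Slc6a5 (the glycine transporter) and Gad2 (which makes GABA). Slc17a6 was at 79.8 to 198 CPM in EDL, 104 to 116 CPM in TA, 40.8 to 55.3 CPM in GS and 31.2 to 37.4 CPM in IF. In PL it was at 167, 9.90 and 10.4 CPM. Slc6a5 reached 248 CPM in PL 2 and Gad2 364 CPM in PL 3. Slc6a5 was at 1.32 to 17.9 CPM in IF, and its lowest library was PL 3 at 0.441 CPM. Not every marker was low in IF. Gad2 was at 1.22 to 15.5 CPM in IF and overlapped EDL, at 2.43 to 11.1 CPM. Gad1 was at 0.509, 14.4 and 0.868 CPM in IF, which held its highest library, and at 0.113 to 0.627 CPM in EDL. Of the other markers on the list, Lbx1 and Tlx3 were at 0 in all 15 libraries, Lmx1b in 13 and Pax2 in 11, and Slc32a1, the vesicular inhibitory amino acid transporter, was at 0 to 14.5 CPM. The sum of 8 oligodendrocyte markers was also lowest in IF, at 160 to 190 CPM in its 3 libraries against 252 CPM or more in the 12 others. The part of these cells in the Nts levels was not tested.

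Ntsr1, the high-affinity receptor, was near the limit of detection. In the TA libraries it was at 18.1, 1.63 and 2.64 CPM, in EDL at 0, 0 and 1.88 CPM and in PL at 1.84, 0 and 0 CPM. In GS it was at 1.17, 0.170 and 2.45 CPM and in IF at 0.713, 1.12 and 1.88 CPM. It had 216 reads over all libraries, of which 107, or 49.5%, came from TA 1. A count of 0 allows up to 3 reads, which is 0.339 to 0.958 CPM in the 4 libraries at 0, and this limit covers counting error only. The libraries of every pool overlapped those of the others except for TA 1, so no order of the pools beyond it can be read at this depth.

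In edgeR's quasi-likelihood F-test, Ntsr1 did not pass for any difference among the pools (Benjamini-Hochberg adjusted p = 0.622), a test that 1.31% of all genes passed. TA against the mean of the other 4 pools gave a log2 fold change of 3.03 ± 1.26 (SE; edgeR adjusted p = 0.330), and without TA 1 it was 1.23. Of all genes tested, 0.286% were called higher and 0.132% lower in TA.

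Ntsr2, the receptor also known from astrocytes, varied more within pools than between them. The TA libraries were at 14.1, 8.85 and 56.5 CPM, the EDL libraries at 32.0, 8.83 and 12.4 CPM and the PL libraries at 7.15, 63.6 and 0 CPM. The GS libraries were at 14.03, 38.8 and 2.77 CPM and the IF libraries at 12.5, 23.9 and 11.7 CPM. Both the highest and the lowest library belonged to PL, and the pool means lay between 16.04 ± 6.79 CPM in IF and 26.5 ± 26.1 CPM in TA (SD, n = 3). The pools overlapped throughout, and edgeR's test gave adjusted p = 0.999 for any difference. Ntsr2 had 1907 reads over all libraries, and the 0 reads of PL 3 allow up to 0.662 CPM. Its SD within pools was 1.72 in log2(CPM + 1), and 91.3% of the 4500 genes within 2-fold of its mean level had a smaller one (median 1.21).

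Astrocyte markers were detected in every pool. The sum of 10 such markers was lowest in IF, at 936 to 1282 CPM, and GS, at 1081 to 1438 CPM, and was 1664 to 2315 CPM in PL, 1745 to 2055 CPM in EDL and 1822 to 3262 CPM in TA. None of the defining markers Aqp4, Gfap, Aldh1l1 and Gja1 was at 0 in any library. The libraries with the most Ntsr2, PL 2 and TA 3, had astrocyte sums of 2240 and 3262 CPM. GS 2, the next at 38.8 CPM of Ntsr2, went the other way. It had the lowest astrocyte sum of GS, 1081 CPM, and an oligodendrocyte sum of 252 CPM. PL 3, with no Ntsr2 read, had an astrocyte sum of 2315 CPM, of which 1918 CPM came from the glutamate transporter gene Slc1a2. Aldh1l1 (0.221 CPM), the gap junction gene Gja1 (1.77 CPM), Fgfr3 and Sox9 (0.662 CPM each) had their lowest library in PL 3. Gjb6 and Mlc1 were at 0 there. Gfap went the other way, at 103 CPM, the highest of all libraries. Aqp4 at 228 CPM and Slc1a3 at 62.9 CPM lay within the range of the other libraries. The sum of 8 oligodendrocyte markers was highest in PL 2, at 2311 CPM, and TA 3, at 1350 CPM, against 160 to 719 CPM in the 13 others. The part of these cells in the Ntsr2 level was not tested.

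Sort1 was the abundant receptor, present in all libraries. In EDL it was at 218, 246 and 220 CPM, in TA at 174, 169 and 321 CPM and in GS at 128, 240 and 101 CPM. In IF it was at 158, 128 and 122 CPM and in PL at 119, 77.3 and 54.9 CPM. The means ran in the order EDL at 228 ± 15.6, TA at 221 ± 86.4, GS at 156 ± 73.6, IF at 136 ± 19.1 and PL at 83.9 ± 32.7 CPM (SD, n = 3). Every EDL library was above every IF and PL library, and all PL libraries were below those of EDL, TA and IF. The gap between PL 1 at 119 CPM and IF 3 at 122 CPM was small. How many of all genes had these separations was not counted, so they are description only. The neighbours EDL and TA, TA and GS, GS and IF, and GS and PL overlapped.

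Sort1 did not pass the test for any difference among the pools (unadjusted p = 0.0211, edgeR quasi-likelihood, 15 libraries in a fit across all genes; adjusted p = 0.227). The adjusted p ran from 0.0777 to 0.402 when single libraries were left out, and DESeq2 gave 0.0970. Against the mean of the other 4 pools, the log2 fold change of Sort1 was -1.11 ± 0.35 in PL (edgeR adjusted p = 0.0774), 0.69 ± 0.31 in EDL (0.734) and 0.64 ± 0.31 in TA (0.420). In PL, 3 of 3 libraries were below the median of the other pools. The PL difference passed with DESeq2 (adjusted p = 0.0227) and without PL 1 (edgeR adjusted p = 0.0173). It did not pass in the 14 other fits that left out a single library. Among these it was -1.05 without PL 2 (edgeR adjusted p = 0.167) and -0.88 without PL 3 (0.237). Both passing settings called more of all genes over the pool contrasts. The calls numbered 2512 with DESeq2 and 3848 without PL 1, against 948 in edgeR with all 15 libraries. The passes are therefore not read as a result about Sort1. Without PL 2 and PL 3, which leaves 1 PL library, the PL difference of Sort1 was -0.61.

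None of the 15 contrasts of a receptor in a pool passed in edgeR. The share of all tested genes that passed was 4.50% higher and 0.363% lower in PL, 0.0628% higher and 0.0349% lower in EDL, 0.0907% higher and 0.0349% lower in GS, and 0.704% higher and 0.397% lower in IF. Against these shares, 0 calls among 3 genes is near the background.

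**Figure D2:**
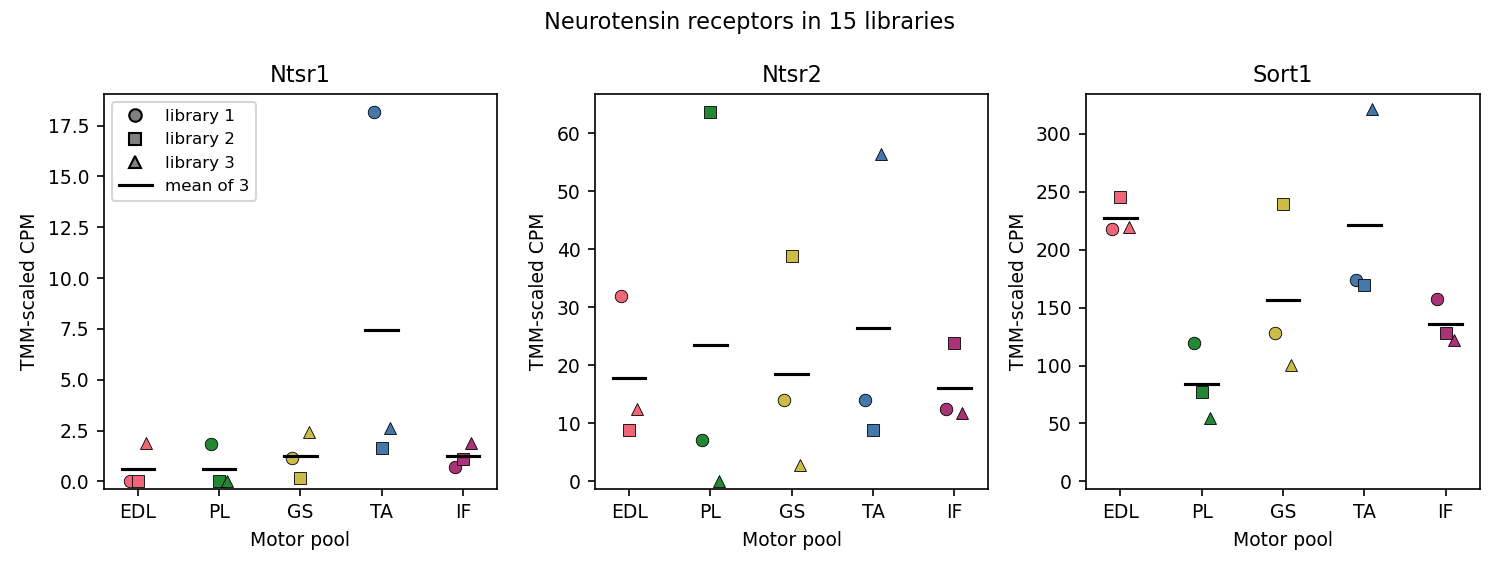
Levels of Ntsr1, Ntsr2 and Sort1 in each library, in TMM-scaled CPM on linear axes of different range, by motor pool, with the symbol giving the library number and the bar the mean of 3. Ntsr1 is near 0 except in TA 1 at 18.1 CPM, Ntsr2 scatters from 0 to 63.6 CPM within PL alone, and Sort1 is at 54.9 to 321 CPM with PL lowest.

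The peptide and its sorting receptor can be set side by side per gene length. In the authors' RPKM, the EDL mean of Nts was 254 ± 17.6 and the PL mean 75.7 ± 15.5, followed by GS at 16.4 ± 5.52, TA at 11.7 ± 4.13 and IF at 2.09 ± 0.746 (SD, n = 3). The Sort1 mean was 17.6 for EDL, 4.61 for PL, 10.98 for GS, 12.3 for TA and 11.3 for IF. Mean Nts RPKM was thus 14.4 times mean Sort1 RPKM in EDL and 16.4 times in PL. The ratio was 1.498 for GS, 0.956 for TA and 0.185 for IF. Nts was above Sort1 in 3 of 3 libraries of EDL, PL and GS, in 1 of 3 of TA and in 0 of 3 of IF. Library by library the ratio was 17.7, 12.7 and 13.4 in EDL and 11.6, 19.3 and 29.4 in PL, so that without PL 2 and PL 3 the PL ratio was 11.6, below the EDL libraries. Both transcripts were lower in 3 of 3 PL libraries than in any EDL library, and how many of all genes were so was not counted. The G protein-coupled receptors were lower per length: the pool means of Ntsr2 were 5.37 to 7.12 RPKM and those of Ntsr1 0.0804 to 0.773 RPKM.

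**Figure D3:**
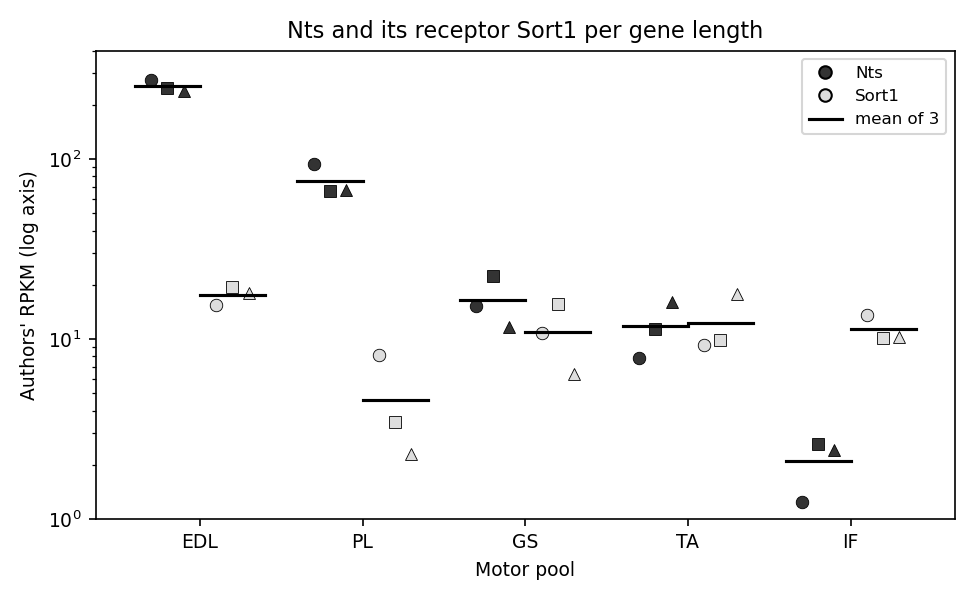
Authors' RPKM of Nts (dark) and Sort1 (light) in each library on a log axis, by motor pool, with bars for the mean of 3 and circle, square and triangle for libraries 1, 2 and 3. Nts runs from 254 RPKM in EDL to 2.09 in IF, while the pool means of Sort1 lie between 4.61 and 17.6 and its libraries between 2.29 and 19.5.

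Over the 15 libraries, Nts had little relation to Ntsr2 or Sort1. Pearson's r of log2(CPM + 1) was 0.061 between Nts and Sort1, -0.066 between Nts and Ntsr2, and -0.38 between Nts and Ntsr1. Among the receptors it was 0.55 between Ntsr2 and Sort1, -0.013 between Ntsr1 and Ntsr2 and 0.17 between Ntsr1 and Sort1. These are descriptions over libraries that share a depth and a pool structure, and for Ntsr1 they rest on few reads.

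The pathway around the members was read from a list of 44 genes, of which 43 were tested. The omitted gene was the convertase Pcsk5. The list held 4 genes of peptide processing, 7 of neurotensin breakdown, 13 of receptor coupling, 4 of receptor desensitization, 4 of the sortilin family and 12 of sortilin partners, ligands and trafficking. In edgeR, 1 of 43 passed for any difference among the pools, against 1.31% of all genes. At an unadjusted p under 0.05 there were 14, and DESeq2 called 10, beside 1163 of all 14340 tested genes. For the unadjusted counts here and below, and for DESeq2 by pool, no share over all genes is given. Those counts are therefore not read as results about the list. Against the other 4 pools, 4 of 43 were called higher in PL (background 4.50%, 9 unadjusted, 6 with DESeq2) and 1 of 43 lower in IF (background 0.397%, 2 unadjusted, 1 with DESeq2). In the 8 other combinations of pool and direction edgeR called 0. There the unadjusted counts were 6 higher and 3 lower in TA, 5 and 3 in EDL, 0 and 2 in GS, 4 higher in IF and 2 lower in PL, and DESeq2 called 2 lower in TA, 2 lower in PL and 0 in the others. The list's median log2 fold change was 0.16 for TA, -0.07 for EDL, -0.06 for PL, -0.12 for GS and -0.02 for IF, beside 0.06, 0.06, -0.06, 0.04 and 0.02 over all tested genes.

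The enzymes that make and break the peptide did not pass in edgeR in any pool. Carboxypeptidase E, encoded by Cpe, which trims the cut peptides, was at 742 ± 247 CPM in EDL and 747 ± 111 CPM in IF (SD, n = 3), the pools at the ends of the Nts range, and at 413 ± 133 CPM in GS. Pcsk2, a convertase of neuropeptide precursors, was at 24.1 ± 18.9 CPM in EDL and 35.5 ± 9.55 CPM in IF. Pcsk1, the other neuroendocrine convertase, was at 0.838 ± 1.24 CPM in EDL and 1.92 ± 0.500 CPM in IF, and had no read in TA or PL. Nln, neurolysin, a peptidase that cleaves neurotensin, was at 47.2 ± 21.8 CPM in TA and 87.6 ± 8.79 CPM in IF. None of these differences passed, and the 4 genes were named for their role with their values already seen. So was Gnaq, the Gq alpha subunit that couples the receptors, which was at 229 ± 12.7 to 303 ± 136 CPM over the pools (edgeR adjusted p = 0.954 for any difference).

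Of the sortilin relatives on the list, Sorcs1 was called lower in IF, as were 0.397% of all tested genes, and Sorcs3 higher in PL, as were 4.50%. Sorcs1, a Vps10p-domain receptor of neurons, fell in IF with a log2 fold change of -2.28 ± 0.46 (SE; edgeR adjusted p = 0.0188). Its IF libraries were at 30.1, 17.7 and 16.9 CPM, below all 12 others, which ran from 38.9 CPM in TA 3 to 213 CPM in EDL 2. EDL was highest, at 168, 213 and 121 CPM. The 3 IF libraries lay below the 12 others for 1.22% of all tested genes. The IF call stayed without PL 2 and PL 3 (adjusted p = 0.00659), and the edgeR adjusted p ran from 0.00977 to 0.199 over the fits that left out 1 library. It was lost without IF 1, IF 2, IF 3 or EDL 2. The EDL difference of 1.41 ± 0.36 did not pass (edgeR adjusted p = 0.184). The interneuron and oligodendrocyte sums given with Nts were lowest in the same 3 IF libraries, and their part in the Sorcs1 difference was not tested.

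Sorcs3, a related receptor, passed for any difference (edgeR adjusted p = 0.0358), but that call stayed in only 2 of the 15 fits without 1 library, those without PL 1 or PL 2 (adjusted p 0.0103 to 0.170 over the 15). Sorcs3 was higher in PL with a log2 fold change of 2.48 ± 0.45 (SE; edgeR adjusted p = 0.00508). The PL libraries were at 74.4, 65.5 and 404 CPM, the TA libraries at 50.0, 70.8 and 69.1 CPM, and the other pools at 13.7 to 42.7 CPM. PL 3 was far above the rest, and PL 2 lay within the range of TA. Without PL 3 the difference was 1.11 (edgeR adjusted p = 0.207). Without PL 2 and PL 3, which leaves 1 PL library, it was 1.19. Sorl1 and Sorcs2, the remaining family members, did not pass in any pool, with Sorl1 at 266 ± 52.2 CPM in IF and 557 ± 122 CPM in TA and Sorcs2 at 57.2 ± 14.99 CPM in IF and 82.0 ± 37.2 CPM in TA.

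**Figure D4:**
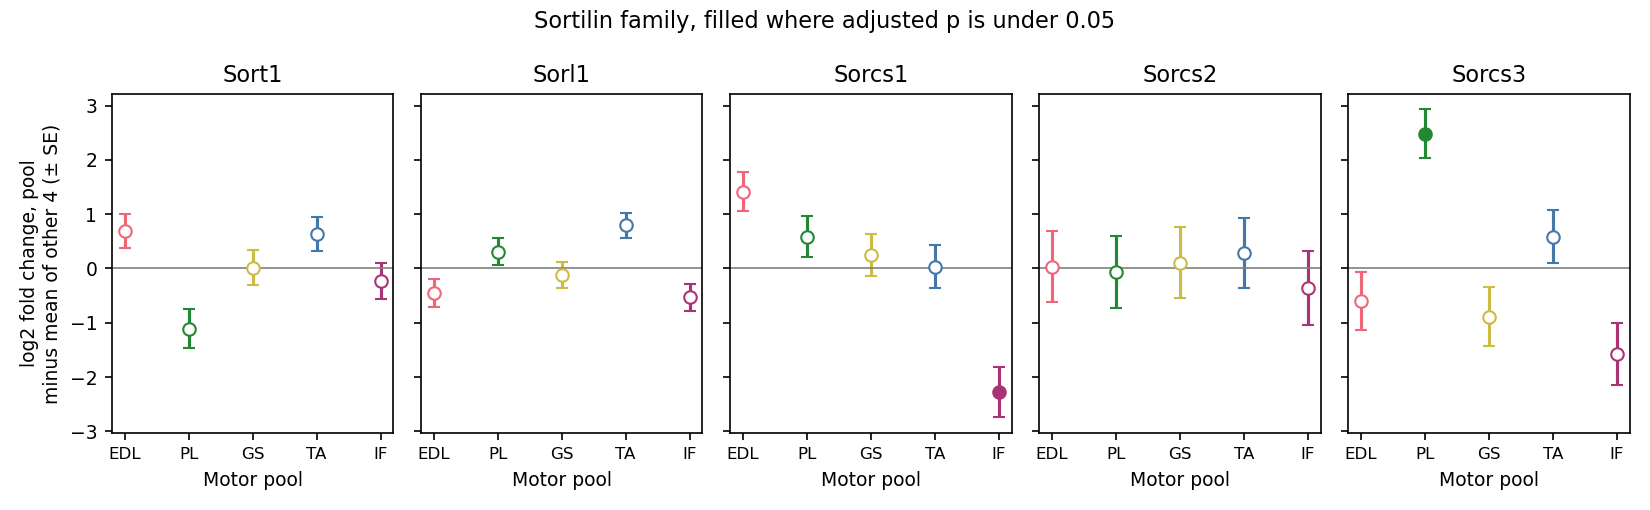
Log2 fold change of Sort1 and the other Vps10p-domain receptor genes in each motor pool against the mean of the other 4, with bars for the SE and filled symbols where edgeR's adjusted p is under 0.05. The filled points are Sorcs1 in IF at -2.28 and Sorcs3 in PL at 2.48, and Sort1 in PL is at -1.11 without passing.

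The other 3 calls in PL rested on PL 2 or PL 3. Grn, the precursor of progranulin, a ligand that Sort1 takes up, was at 20.7, 3.19 and 486 CPM in PL and at 2.46 to 47.7 CPM in the 12 other libraries. Its log2 fold change was 3.49 (edgeR adjusted p = 0.0118), and without PL 3 it was -0.33. Adrbk1, a kinase that desensitizes G protein-coupled receptors, was at 32.1, 9.90 and 530 CPM in PL, with a log2 fold change of 2.55 (0.0257), and of -0.63 without PL 3; its call was also lost without EDL 2, GS 2 or any 1 IF library. Prkce, a protein kinase C downstream of phospholipase C, was at 162, 411 and 121 CPM in PL and at 37.3 to 117 CPM in the others, with 1.53 (0.0186), and 0.82 without PL 2 (0.241). Of these 3, Prkce alone had all PL libraries above the other pools, by a small gap between PL 3 at 121 CPM and IF 1 at 117 CPM. How many of all genes had that arrangement was not counted. Without PL 2 and PL 3, the log2 fold change was 0.45 for Grn, -0.032 for Adrbk1, 1.01 for Prkce and 1.19 for Sorcs3. That fit has 1 PL library, so it cannot tell whether the 4 PL calls of the list hold.

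Among all tested genes, those whose pattern was most like that of Nts were chosen by Pearson's r of log2(CPM + 1) over the 15 libraries. The highest were Ptpn5 (a neuronal tyrosine phosphatase, r = 0.89), Cd59a (a complement regulator, 0.87), Sox6 (a SoxD transcription factor, 0.85), Plxna2 (a semaphorin receptor, 0.82) and Sorcs1 (0.80). The most opposite were Man1a (a mannosidase of the Golgi, -0.90), Fam46a (-0.86), Igf1 (insulin-like growth factor, -0.84), Lrrn4 (-0.82) and Myh2 (a myosin heavy chain, -0.82). In all, 5 genes had r over 0.8 and 8 had r under -0.8, clone and model names left out. Leaving out PL 2 and PL 3, r was 0.82 to 0.90 for the first 5 and -0.92 to -0.80 for the others. The points share pools and library depth, and the genes were picked for r, so no test is given.

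The likeness differed in detail. Sox6 was at 152 ± 69.6 CPM in EDL and 268 ± 194 CPM in PL, and at 6.87 ± 2.15 CPM in IF (SD, n = 3). Plxna2 was highest in PL, at 840 ± 441 CPM against 355 ± 9.43 CPM in EDL and 43.0 ± 5.48 CPM in IF, an order unlike that of Nts. Ptpn5 had a narrow range, from 181 ± 14.9 CPM in IF to 358 ± 70.5 CPM in PL. Igf1 ran the other way, at 309 ± 93.4 CPM in IF, 121 ± 13.6 CPM in GS and 6.30 ± 8.08 CPM in EDL. Myh2 and Lrrn4 were low throughout, with Myh2 at 7.82 ± 0.857 CPM in IF and 0 in EDL and TA.

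**Figure D5:**
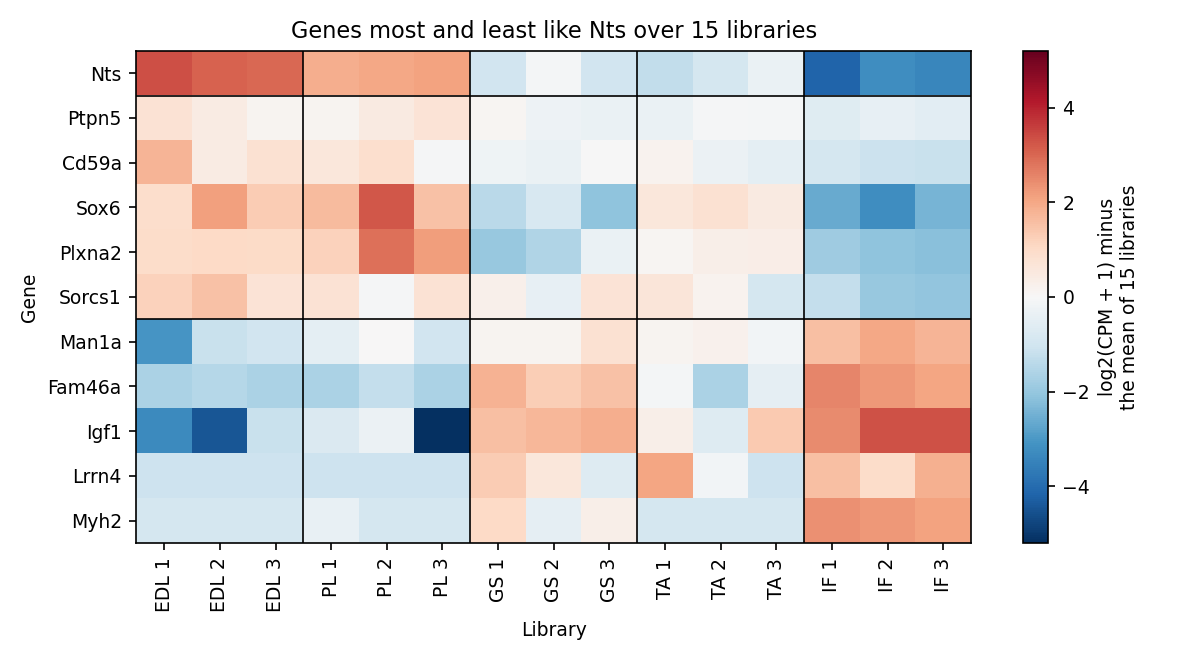
Levels of Nts and of the 5 genes most like it and the 5 most opposite, as log2(CPM + 1) minus the gene's mean over 15 libraries (colour), with libraries in columns by motor pool. Nts and the 5 below it are mostly above their mean in EDL and PL and below it in IF, and the last 5 are above their mean in IF.

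For Sort1 the most alike were Per1 (a circadian clock gene, r = 0.91), Gramd1a (0.91) and Sema3d (a secreted semaphorin, 0.90), and the PL mean of each was its lowest, at 3.57 ± 6.19, 12.2 ± 13.9 and 2.85 ± 4.13 CPM. Without PL 2 and PL 3, r was 0.85, 0.88 and 0.79. For Ntsr2 they were Hdac4 (a histone deacetylase, 0.91), Otud5 (0.90) and Gtf2f1 (0.89), with r of 0.78, 0.72 and 0.72 without PL 2 and PL 3. Genes with r over 0.8 numbered 46 for Sort1 and 47 for Ntsr2.

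The authors' deposited tables hold 16 lists of genes higher in a pool than in another. In the authors' deposited tables Nts appears in 4 of these lists, with a ratio of 130 for EDL over IF, 59.5 for PL over IF, 16.02 for EDL over TA and 9.38 for GS over IF. Nts is absent from the authors' deposited lists of genes higher in EDL than PL, in PL than TA, and in TA than IF. Among the 16 lists there is no comparison of GS with EDL or PL. Ntsr1, Ntsr2 and Sort1 appear in 0 of the authors' deposited lists. Of the pathway genes named above, the authors' deposited table gives Sorcs1 a ratio of 7.76 for EDL over IF (authors' adjusted p = 1.73e-07) and Grn a ratio of 26.4 for PL over TA (authors' adjusted p = 0.0296). The lists share pools with each other and with the fits above, so they are the same libraries seen again.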

How the data were processed

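The deposited files hold read counts for each gene, RPKM made by the authors from these counts, and lists of pairwise ratios (fold changes) with p-values. Per the submitters' processing notes, reads were aligned with Bowtie 0.12.9 to mm9 and compared with DESeq; the gene counter is not given in the sources used here. Per the labels, libraries came from the Ovation kit and Nextera, a tagging method that does not mark strand. In the deposited count columns 16 cells in 4 genes were below 0, and these genes were left out.

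Counts were tested with edgeR 4.0.16 in R 4.3.3 (quasi-likelihood F-test, TMM, filterByExpr, 15 libraries in 1 fit, a coefficient per pool), with Benjamini-Hochberg adjustment over 14340 genes and a threshold of 0.05. In the contrasts a pool was compared with the average of the 4 others. The SE beside an edgeR log2 fold change was the absolute change divided by the square root of the F statistic. It was thus derived from the test and not estimated apart from it. DESeq2 1.42.0 was an alternative. The scripts were tested on simulated data with less spread between libraries than these data, so that test checks the code only. RPKM were used to compare genes and CPM to compare libraries. Named genes were the 4 members, list genes that passed, and the genes ranked by likeness to Nts, Sort1 and Ntsr2. Cpe, Pcsk1, Pcsk2, Nln, Gnaq, Sorl1 and Sorcs2, which did not pass, were added for their roles after their values were seen. The members and lists were chosen with earlier results of these data known.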

Additional observations from a re-analysis of the deposited data

How the results depend on the processing

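Genes called for any difference among the 5 pools numbered 188 in edgeR, 1163 with DESeq2, 1425 without a filter on low counts, and 66 to 1211 when single libraries were left out. Calls over the 5 pool contrasts numbered 948, against 2512 with DESeq2, 2900 without the filter, 449 without PL 2 and PL 3, and 432 to 3848 when single libraries were left out. The Nts ratio of EDL over PL was 2.21, but 2.95 in unscaled CPM and 3.36 in RPKM. For PL against the others, the log2 fold change of Grn was -0.33 to 4.06 and that of Adrbk1 -0.63 to 3.10 when single libraries were left out, and Adrbk1 was at -0.032 without PL 2 and PL 3. The cause of these changes was not tested. Ntsr1 is limited by its 216 reads. The scalings and left-out libraries of the Nts ratios, and the likeness and Nts to Sort1 values without PL 2 and PL 3, were added after seeing the data.

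Replicate numbers did not pair the libraries: of 30 same-numbered pairs, 1 correlated over 0.1 in its deviations, and 4 of 15 libraries correlated best with their own number. With the replicate block, edgeR called 95 genes for any difference and 285 over the pool contrasts.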
